A study of Vitis rotundifolia with 18 samples.

Results

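In muscadine berries 80 of 27228 genes were expressed at bunch closure and were close to silent at both later stages that were sampled. A gene was taken into this set when its TPM, the share of a library's transcripts scaled by gene length and to the same total in every library, was at least 5 in all 6 libraries of bunch closure and at most 1 in all 12 libraries of veraison and maturity. The members were thus chosen on their fall after bunch closure, and that fall is described here without a test. The set makes up 0.294% of the identifiers, and 0.682% of the 11728 genes that stood at 5 TPM or more in every library of bunch closure.

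The berries came from Vitis rotundifolia, the muscadine grape. With 3 libraries per cultivar and stage there were 6 groups: Noble (dark-skinned) and Carlos (bronze-skinned) at E-L 32 (bunch closure), at E-L 35 (veraison) and at E-L 38 (maturity). E-L is a numbered scale of grapevine growth, the tissue is given as berry, no treatment is named, and all berries were collected at 1 research station in Florida. Nothing in the labels says whether the replicates came from separate vines, so each p-value here reflects the spread among these libraries alone, which may be technical.

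A grape berry first grows by division and enlargement of its cells while its seeds form, and it stores tannins and organic acids. At veraison growth resumes, the fruit softens, sugar rises and, in dark cultivars, the skin colours. Bunch closure is the point in green growth at which neighbouring berries touch. The identifiers of the set follow the style VIT_, a chromosome-like field and a gene number. The files pair no identifier with a gene name, and 0 of the 27228 were found among the 27334 genes that RefSeq lists for a Carlos genome assembly. No role is therefore given for any gene, and the label berry was not checked against marker genes.

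Before the results, several libraries need naming. Libraries held 18919154 to 30843022 rounded expected counts. On the first principal component of the 500 most variable genes, which held 75.6% of their variance, replicate 1 of Noble E-L 32 had a score of -52.5 where its fellow libraries had -79.1 and -82.9. Replicate 3 of Carlos E-L 35 had 3.90 where its fellow libraries had 46.6 and 46.4. Noble E-L 35 replicate 2 differed from its replicates by a chi-square of 150.5 and 148 per degree of freedom, where the other pair of that group gave 15.9. These 3 libraries are called the libraries that stood apart. They were not picked by a common measure, and others differed from their replicates too. By chi-square per degree of freedom, the library labelled Carlos E-L 38 replicate 3 gave 91.6 and 83.1, where the other pair gave 12.1. The library labelled Noble E-L 38 replicate 3 gave 37.5 and 43, where the other pair gave 8.78. Neither is among the 3. At E-L 38 the cultivar labels ran against those of E-L 35: of 1815 genes called between the cultivars at both stages, 2.98% had the same direction. At E-L 32 and E-L 35, 75.1% of 1384 such genes did. Cultivars at E-L 38 are therefore named as labelled and are not compared, and results that involve E-L 38 are averaged over both labels, which does not depend on the names.

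The set lost nearly all of its transcripts between bunch closure and veraison. Noble libraries held 903.7, 996.1 and 995.0 TPM summed over the 80 genes at E-L 32, then 10.4, 23.2 and 29.8 TPM at E-L 35. Libraries labelled Noble held 7.31, 6.27 and 6.86 TPM at E-L 38. Carlos libraries held 2419, 2494 and 2549 TPM at E-L 32, then 11.7, 12.8 and 29.1 TPM at E-L 35, and libraries labelled Carlos held 6.92, 8.89 and 7.67 TPM at E-L 38. The stages do not overlap in this sum, as the rule itself requires of each gene between E-L 32 and the later stages. In a whole berry fewer cells of a type and less RNA per cell cannot be told apart.

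**Figure D1:**
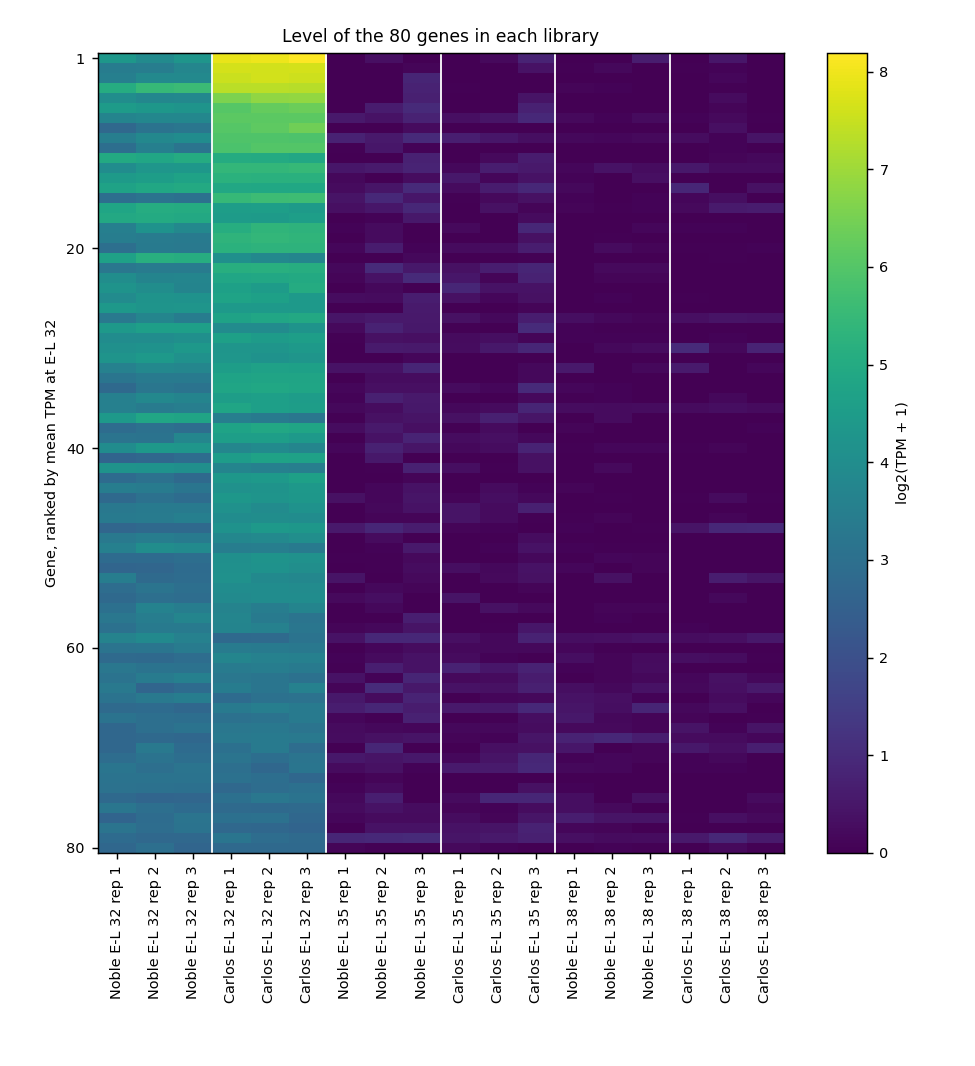
Level of the 80 genes (rows, ranked by mean TPM at E-L 32) in each of the 18 libraries (columns), as log2(TPM + 1) on the colour scale. The 6 columns of E-L 32 are bright and the other 12 are dark, which is how the genes were chosen. The uppermost rows are brighter in the 3 Carlos columns of E-L 32 than in the 3 Noble ones, and faint signal at E-L 35 is most frequent in Noble replicates 2 and 3 and Carlos replicate 3.

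**Figure D2:**
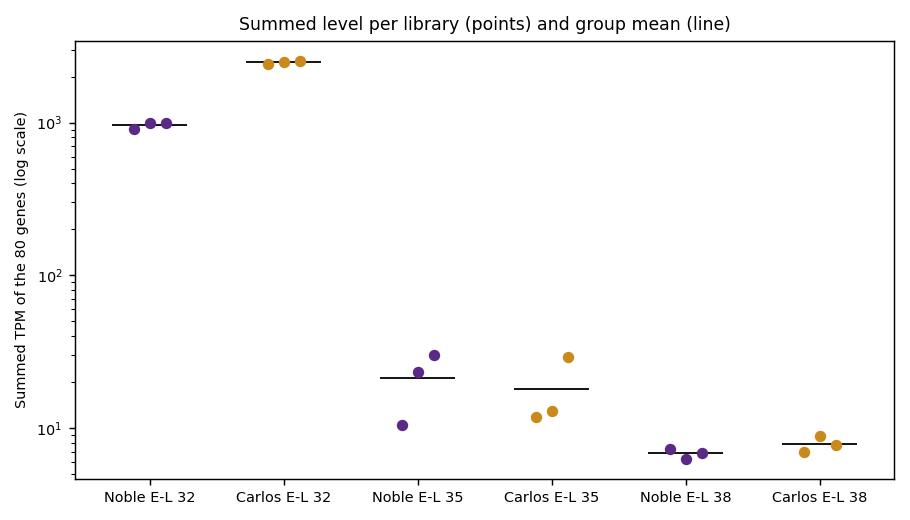
Summed TPM of the 80 genes per library (points, logarithmic axis), with the mean of each group of 3 libraries as a line. Noble and Carlos averaged 965 and 2490 TPM at E-L 32, 21.2 and 17.9 TPM at E-L 35, and 6.81 and 7.83 TPM at E-L 38 as labelled.

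Most of these genes were of modest abundance even at bunch closure. Their mean TPM over the 6 libraries of E-L 32 ran from 5.95 to 139, with a median of 15.1, whereas the median of all 11728 genes above the same minimum was 32.4. Of the set, 24 genes (30.0%) averaged 20 TPM or more, against 68.7% of those 11728 genes, and 5 genes (6.25%) averaged 50 TPM or more, against 34.9%. The fixed maximum of 1 TPM at later stages asks a larger fall of a gene with a higher level. These differences from the 11728 genes therefore follow in part from the rule. Gene length ran from 547 to 4802 bases with a median of 1228.5, against 1492 for the 11728 genes. No member carried one of the 640 identifiers that begin with ENSRNA. All 80 genes passed the filter on low counts, and they did so through E-L 32, where they are high by choice.

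The fall can be read against all genes only as background. Of 17657 genes tested with edgeR, 70.4% differed between the later stages and E-L 32 at an adjusted p under 0.05, with 34.5% higher and 35.9% lower later. All 80 members were lower, and nothing is read from this, since the rule used that contrast.

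The thresholds cut through a continuous range of genes. Just inside the minimum of 5 TPM lay VIT_13s0019g02550, with a lowest value of 5.20 TPM, and VIT_06s0004g02110, with 5.21 TPM. Just outside lay VIT_08s0007g04950, with 4.97 TPM, and VIT_18s0001g01210, with 4.88 TPM, both in Noble E-L 32 replicate 1. At the maximum of 1 TPM, VIT_04s0023g03710 and VIT_15s0046g00730 reached 1 TPM in 1 later library each and were kept. VIT_10s0003g02960, at 1.03 TPM in Noble E-L 35 replicate 3, and VIT_14s0128g00420, at 1.04 TPM in Carlos E-L 35 replicate 3, were not. The number of members rested on single libraries of veraison: without Carlos E-L 35 replicate 3 it would be 122, and without Noble E-L 35 replicate 3 it would be 98. Without the 3 libraries that stood apart, which include Noble E-L 32 replicate 1, it would be 158.

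Veraison was the stage that decided membership. Of genes at 5 TPM or more in every E-L 32 library, 331 were at most 1 TPM in all 6 libraries of E-L 38 but only 84 in all 6 libraries of E-L 35. Thus 251 genes met the limit at maturity and missed it at veraison. The reverse held for 4 genes, VIT_01s0150g00390, VIT_05s0077g01670, VIT_08s0058g01270 and VIT_14s0128g00110, which were at most 0.94 TPM at E-L 35 and between 0.24 and 2.52 TPM at E-L 38. These 4 were singled out after their values were seen.

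At bunch closure the set was lower in Noble than in Carlos. With edgeR's quasi-likelihood test, 30 of the 80 genes were lower in Noble and 2 were higher at an adjusted p under 0.05. That is 40% of the set, beside 27.5% of all 17657 genes. By direction, 37.5% of the set were lower in Noble, beside 13.6% of all genes, and 2.5% were higher, beside 13.8%. With upper-quartile scaling, which moved the split of all calls toward Noble, 27 were lower and 2 higher. The median log2 fold change, Noble over Carlos, was -0.78 over the set and 0.01 over all genes. All 30 called falls were at least 2-fold, and 5 of them were 8-fold or more, 12 were 4-fold to under 8-fold and 13 were 2-fold to under 4-fold. Noble and Carlos values did not overlap in any of the 30, but such separation was common: it was found in 77.5% of the set (61.3% with Noble lower) and in 63.4% of the 11728 genes above the minimum (26.0% with Noble lower).

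Among the 11728 genes that share the minimum of 5 TPM, 11722 were tested. Of these, 15.9% were called lower in Noble, 10.3% were called higher and 4.07% were called lower by at least 2-fold, against 37.5% of the set for the last of these. The minimum applies in both cultivars, so genes nearly absent from either are not in the set. Genes that met the maximum at later stages but reached 5 TPM in every library of 1 cultivar alone numbered 88 for Noble and 71 for Carlos.

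The summed difference was also present outside the most abundant genes. The 5 highest members made up 9.89% of the set's summed TPM in Noble and 36.9% in Carlos at E-L 32. The other 75 genes still summed to 816.2, 901.8 and 890.4 TPM in Noble, against 1541, 1574 and 1595 TPM in Carlos. The median of the genes' mean levels was 9.29 TPM in Noble, and the median was 18 TPM in Carlos.

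Noble E-L 32 lay nearer to the later stages than Carlos E-L 32 did. On the first principal component its libraries stood at -52.5, -79.1 and -82.9, against -112.0, -112.6 and -112.9 for Carlos, with later libraries from 3.90 to 64.8. Genes of the set were not removed before that component was computed, so it may in part restate their own difference. Developmental progress at sampling and cultivar cannot be told apart in this design. Noble replicate 1, which lay nearest, had the lowest Noble value in 49 of the 80 genes (61.3%) and in 54.5% of the 11728 genes. Without that library 23 genes of the set were called lower in Noble, and leaving out any 1 library of E-L 32 gave 22 to 24. The median log2 fold change of the set was -0.82 without Noble replicate 1, against -0.78 with all libraries. Without the 3 libraries that stood apart, 39 genes were called lower in Noble. Calls over all genes moved too, from 4852 in the main fit to 6599 without those 3 libraries. They numbered 3405 to 3596 when any 1 library of E-L 32 was left out.

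**Figure D3:**
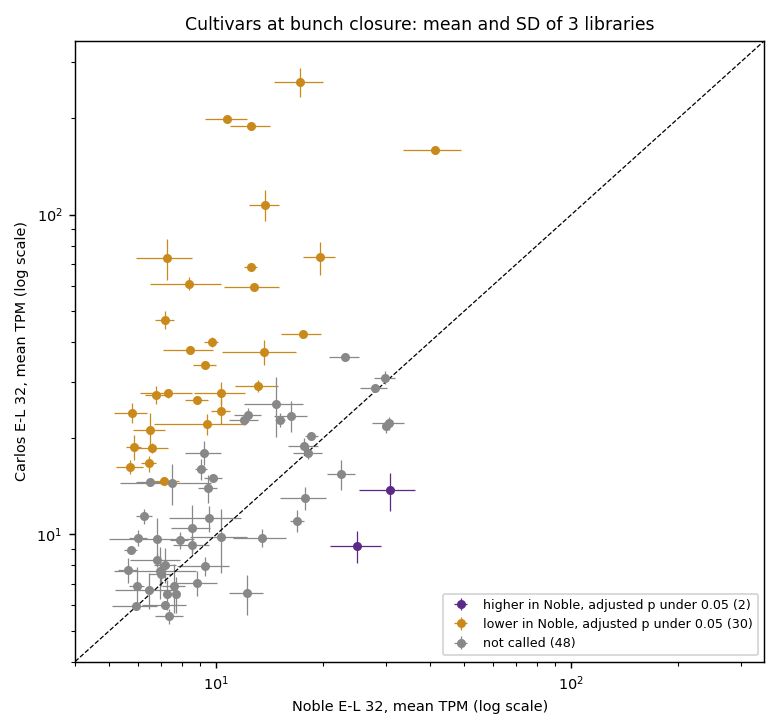
Mean TPM of each of the 80 genes at E-L 32 in Noble (x axis) and Carlos (y axis), both logarithmic, with bars of 1 SD over 3 libraries and a dashed line of equal level. The 30 genes called lower in Noble lie above the line and reach 261 TPM in Carlos, the 2 called higher in Noble lie below it, and 48 were not called.

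The most abundant gene of the set was VIT_06s0004g07900. At E-L 32 it stood at 19.2, 14.1 and 18.4 TPM in Noble, against 237.9, 253.1 and 290.7 TPM in Carlos, and its log2 fold change was -3.99 ± 0.45 (SE; edgeR adjusted p = 2.1e-05). In Carlos this gene alone gave 10.5% of the set's summed TPM, and in Noble 1.79%. After bunch closure 15 counts remained over 12 libraries, 8 of them at E-L 35 and 7 at E-L 38.

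VIT_05s0020g00420 had the widest gap between cultivars of the set. Noble libraries of E-L 32 held 9.73, 10.1 and 12.4 TPM, against 201.3, 197.3 and 200.4 TPM in Carlos. Its log2 fold change was -4.36 ± 0.45 (SE; edgeR adjusted p = 1e-05). The Carlos libraries lay within 4 TPM of each other, and later stages held at most 0.32 TPM.

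VIT_10s0042g00080 followed closely, with 10.7, 13.4 and 13.6 TPM in Noble E-L 32, against 185.5, 195.1 and 188.3 TPM in Carlos (log2 fold change -4.05 ± 0.51, SE; edgeR adjusted p = 0.00022). DESeq2 did not call it (adjusted p = 0.085; its alternatives spanned 1.1e-09 to 0.085). At E-L 35 it was seen in 1 library, Noble replicate 3, where it had 15 counts and 0.81 TPM. The other 5 libraries of that stage held 0 counts.

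VIT_10s0116g01580 stood at 5.78, 7.72 and 8.27 TPM in Noble E-L 32, against 64.5, 70.3 and 85.1 TPM in Carlos (log2 fold change -3.45 ± 0.41, SE; edgeR adjusted p = 0.00015). Its Noble values were close to the minimum that defines the set. VIT_04s0043g00300 stood at 15.2, 12.8 and 13.02 TPM in Noble, against 93.5, 113.1 and 115.7 TPM in Carlos (log2 fold change -3.08 ± 0.51, SE; edgeR adjusted p = 0.00072). The groups were far apart in both genes, although DESeq2 did not call VIT_04s0043g00300 (adjusted p = 0.13, in a range of 1e-07 to 0.13).

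VIT_01s0011g02250 was the member with the highest level in Noble. It reached 32.5, 43.9 and 47.2 TPM there at E-L 32, against 159.7, 161.3 and 158.3 TPM in Carlos (log2 fold change -2.10 ± 0.50, SE; edgeR adjusted p = 0.0063; DESeq2 0.20, in a range of 5.2e-07 to 0.20). The lowest Noble value was that of replicate 1. Of its 34 counts at E-L 35, 31 lay in Noble replicate 3.

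In 2 of the genes called by edgeR the order was the opposite, and both calls were near the threshold. Over the whole set, log2 fold changes were positive in 16 genes and negative in 64. All Noble values lay above all Carlos values in 13 genes, and below them in 49. Separation in either direction was thus found in 77.5% of the set, beside 63.4% of the 11728 genes above the minimum. With Noble below, it was 61.3% beside 26.0%. VIT_17s0000g05830 stood at 20.2, 27.8 and 26.8 TPM in Noble E-L 32, against 10.3, 9.07 and 8.19 TPM in Carlos (log2 fold change 1.3 ± 0.42, SE; edgeR adjusted p = 0.035, in a range of 5e-07 to 0.12). VIT_11s0016g00330 stood at 24.5, 34.8 and 33.0 TPM in Noble, against 15.8, 13.1 and 12.2 TPM in Carlos (log2 fold change 1.02 ± 0.34, SE; edgeR adjusted p = 0.041, in a range of 8.8e-06 to 0.14). Both calls ended when any 1 of the 6 libraries of E-L 32 was left out, which left 0 genes called higher in Noble with edgeR and 2 at an unadjusted p under 0.05, while DESeq2 and limma-voom each called 3 with all libraries.

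**Figure D4:**
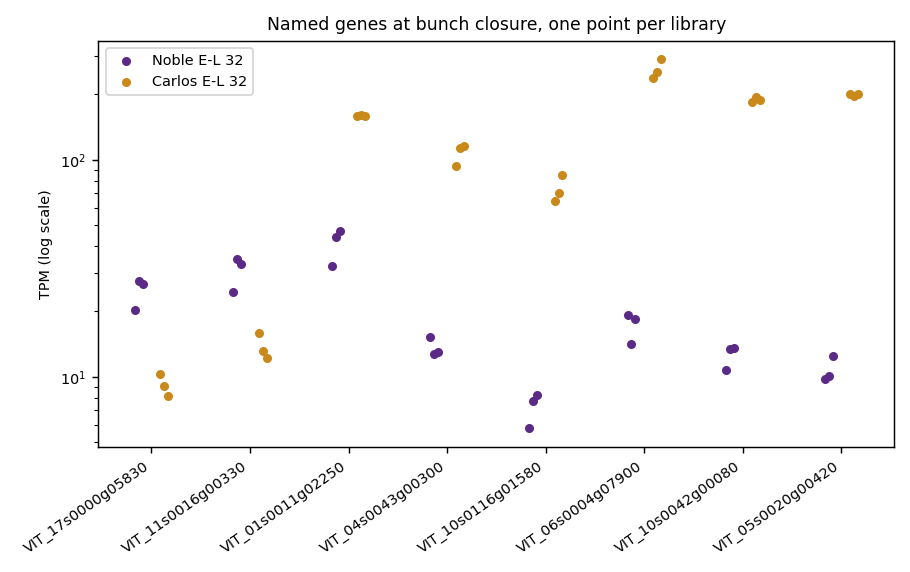
TPM (logarithmic axis) of the most abundant members and of those with the widest cultivar differences, 1 point per library at E-L 32. In VIT_17s0000g05830 and VIT_11s0016g00330 the Noble points lie above the Carlos points, and in the other 6 genes they lie below, farthest in VIT_05s0020g00420.

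The remaining genes that were lower in Noble formed a graded series. A further 19 called genes, not named by rule, averaged 5.86 to 17.5 TPM in Noble and 14.7 to 68.7 TPM in Carlos, with log2 fold changes of -3.00 to -1.17 and edgeR adjusted p from 2.1e-05 to 0.048. VIT_06s0004g02110, close to the minimum, stood at 5.21, 5.68 and 6.42 TPM in Noble, against 22.1, 25.4 and 24.7 TPM in Carlos (log2 fold change -2.18 ± 0.61, SE; edgeR adjusted p = 0.022). That call ended without any 1 of the 6 libraries and with DESeq2 (adjusted p = 0.39, in a range of 1.1e-06 to 0.39).

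The other 48 genes were not called between the cultivars. Their log2 fold changes ran from -1.25 to 0.78 with a median SE of 0.45, 34 negative and 14 positive. VIT_15s0046g00730 was among them, with 20.1, 23.8 and 23.6 TPM in Noble, against 14.6, 14.3 and 17.4 TPM in Carlos (log2 fold change 0.41 ± 0.57, SE; edgeR adjusted p = 0.65). VIT_04s0023g03710 stood at 8.84, 5.30 and 6.30 TPM in Noble, against 9.77, 8.02 and 11.2 TPM in Carlos (log2 fold change -0.62 ± 0.46, SE; edgeR adjusted p = 0.36), and its groups overlapped. None of the 32 called differences in the set was below 2-fold. The spread in this fit was estimated over all 18 libraries, and 12 of these are from later stages, where the genes had few counts. In a fit to the 6 libraries of E-L 32 alone, 49 genes of the set were called lower and 10 higher in Noble. Calls over all genes rose as well in that fit, to 9298 (51.2% higher in Noble), against 4852 (50.4%) in the main fit. At the standard errors of the main fit, smaller differences may not have been detectable.

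Several members had identifiers next to each other in the deposited list. There were 4 such runs with 10 genes, 12.5% of the set, and no coordinates were used, since no annotation of these identifiers was at hand. The first run was VIT_08s0007g00660, VIT_08s0007g00670 and VIT_08s0007g00680. The second was VIT_13s0019g02530, VIT_13s0019g02540 and VIT_13s0019g02550. The pairs were VIT_04s0043g00290 with VIT_04s0043g00300 and VIT_07s0005g01300 with VIT_07s0005g01310.

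Within the first run the genes differed between cultivars to different degrees. VIT_08s0007g00660 stood at 7.63, 7.72 and 7.68 TPM in Noble E-L 32, against 7.26, 6.73 and 5.59 TPM in Carlos (log2 fold change 0.13 ± 0.35, SE; edgeR adjusted p = 0.82). VIT_08s0007g00670 stood at 10.1, 9.69 and 9.26 TPM in Noble, against 38.8, 41.6 and 39.6 TPM in Carlos (log2 fold change -2.18 ± 0.51, SE; edgeR adjusted p = 0.0071). VIT_08s0007g00680 stood at 8.08, 9.13 and 9.31 TPM in Noble, against 25.9, 26.7 and 26.4 TPM in Carlos (log2 fold change -1.72 ± 0.45, SE; edgeR adjusted p = 0.012). Both calls ended with DESeq2 (adjusted p = 0.37, in a range of 6.6e-08 to 0.37, for VIT_08s0007g00670, and 0.26, in a range of 1.2e-07 to 0.26, for VIT_08s0007g00680). Expected counts were not whole for all 3 genes in 5 or 6 libraries, so part of their level depends on how reads shared with similar genes were divided.

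The identifiers after that run fell as well without meeting the rule. VIT_08s0007g00690 averaged 708 TPM in Noble and 151 TPM in Carlos at E-L 32, 5.62 TPM at E-L 35 and 0.26 TPM at E-L 38. It missed the set by its later level, which reached 16.1 TPM in a library of veraison. VIT_08s0007g00700 averaged 5.41 TPM in Noble and 55.0 TPM in Carlos at E-L 32 and at most 0.25 TPM later, but had 4.13 TPM in its lowest library of E-L 32. Their difference between cultivars was not taken from a test here. The 2 identifiers before the run were at 0 TPM on average at all stages.

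In the second run VIT_13s0019g02530 stood at 5.35, 5.49 and 6.27 TPM in Noble E-L 32, against 16.2, 17.1 and 15.5 TPM in Carlos (log2 fold change -1.65 ± 0.44, SE; edgeR adjusted p = 0.013). This call ended without Noble replicate 1, Noble replicate 2 or Carlos replicate 2 (adjusted p up to 0.056, in a range of 7.5e-18 to 0.056). VIT_13s0019g02540 stood at 7.92, 8.04 and 9.70 TPM in Noble, against 9.59, 9.43 and 8.74 TPM in Carlos, and VIT_13s0019g02550 at 7.83, 6.62 and 7.67 TPM in Noble, against 5.80, 5.61 and 5.20 TPM in Carlos. Neither was called (edgeR adjusted p = 0.71 and 0.74). VIT_13s0019g02530 had fractional expected counts in 13 libraries and VIT_13s0019g02540 in 7. The identifiers on either side were at or near 0 TPM throughout.

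In the first pair both genes were called lower in Noble, and in the second pair 1 was; differences between genes of a run were not tested. VIT_04s0043g00290 stood at 21.8, 19.04 and 17.8 TPM in Noble E-L 32, against 64.1, 75.4 and 81.3 TPM in Carlos (log2 fold change -2.02 ± 0.52, SE; edgeR adjusted p = 0.012). That call ended without Noble replicate 2, Noble replicate 3 or Carlos replicate 3 and with DESeq2 (adjusted p = 0.20, in a range of 2.9e-06 to 0.20). The neighbours VIT_04s0043g00270 and VIT_04s0043g00310 did not share the fall, at 37.3 and 23.5 TPM in Noble and 36.8 and 30.8 TPM in Carlos at E-L 32, 32.8 and 26.8 TPM at E-L 35, and 28.2 and 18.3 TPM at E-L 38. VIT_07s0005g01300 stood at 14.8, 19.8 and 18.6 TPM in Noble, against 12.6, 14.2 and 12.1 TPM in Carlos (edgeR adjusted p = 0.68). VIT_07s0005g01310 stood at 15.2, 11.99 and 12.1 TPM in Noble, against 28.01, 28.9 and 30.4 TPM in Carlos (log2 fold change -1.26 ± 0.44, SE; edgeR adjusted p = 0.048).

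**Figure D5:**
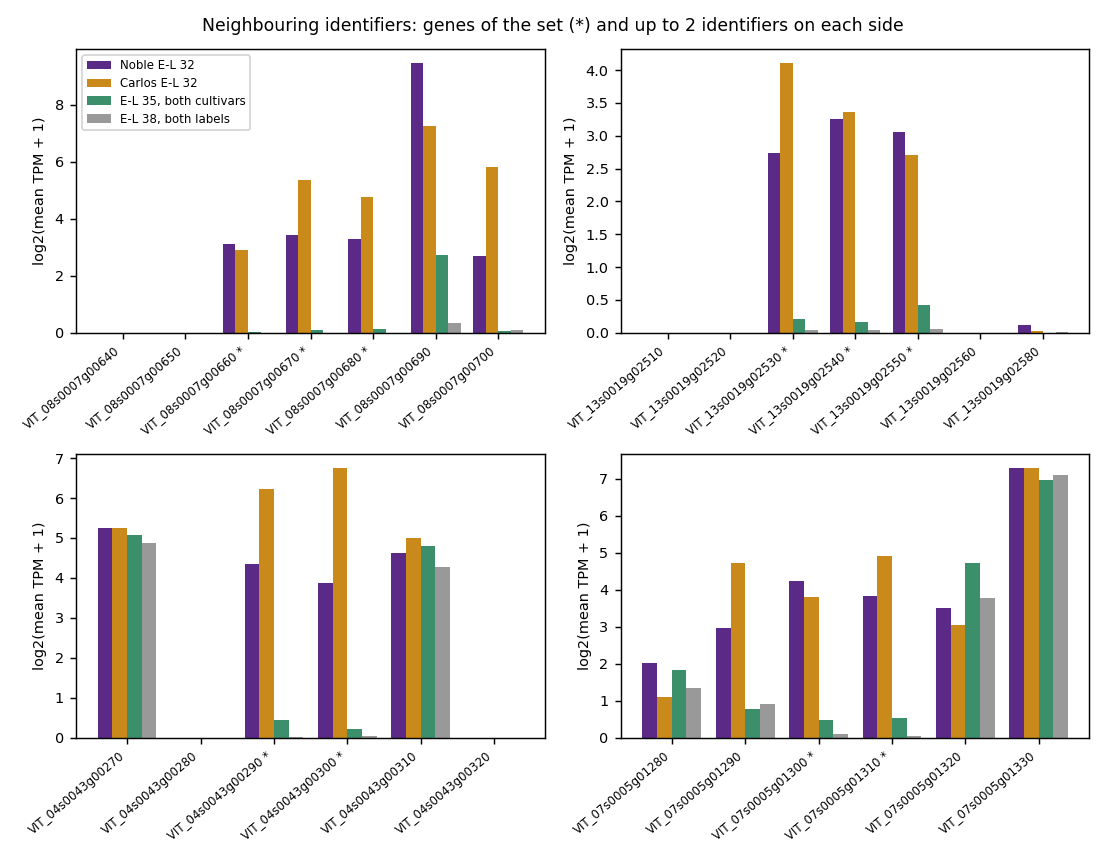
Mean TPM, as log2(mean TPM + 1), of the 4 runs of neighbouring members (marked *) and of up to 2 identifiers on each side. Bars give Noble and Carlos at E-L 32 and both cultivars together at E-L 35 and E-L 38. VIT_08s0007g00690, VIT_08s0007g00700 and VIT_07s0005g01290 also fell after E-L 32, whereas VIT_04s0043g00270, VIT_04s0043g00310 and VIT_07s0005g01330 kept most of their level.

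Trace signal was left at veraison and less at maturity. No gene of the set was at 0 counts in all 12 later libraries, and 13 had counts in every one of them. Each gene had at least 1 count at E-L 35. At E-L 38, 10 genes had 0 counts in all 6 libraries, and a count of 0 there allows a level of up to 0.0217 CPM (3 counts over the scaled libraries, counting error only). The mean TPM of the median gene was 0.21 at E-L 35 and 0.0367 at E-L 38. Over all 12 later libraries the mean TPM was a median of 0.837% of that at E-L 32, and at most 8.71%, in VIT_18s0166g00250. In 3 genes 1 count was left over all 12: VIT_08s0040g02070 and VIT_08s0007g06870 had theirs in Noble E-L 35 replicate 3, and VIT_08s0007g00660 had its count in Noble E-L 35 replicate 2.

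The remainder at the later stages is given as a description, since the rule limited every gene to 1 TPM at both of them. With edgeR, averaged over both labels, 34 of the 80 genes (42.5%) were lower in mature than in veraison berries, beside 21.2% of all genes, and 0 were higher, beside 16.9%. In either direction 38.1% of all genes were called. At an unadjusted p under 0.05, 1 gene of the set was higher, and DESeq2 and limma-voom called 1 each. The share and the direction of these calls follow in part from the choice of members, which leaves little room to rise, and nothing is read from them against all genes. All but 1 of the 34 had at least 10 counts over the 6 libraries of E-L 35.

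VIT_14s0060g02480 had 1 count over the 6 libraries of E-L 38 and 85 at E-L 35, where its libraries ran from 0.02 to 0.64 TPM. VIT_13s0019g02550 had 11 counts at E-L 38 and 111 at E-L 35, and VIT_12s0028g02400 had 10 and 94. VIT_19s0014g00680 had the highest log2 fold change of the set in this comparison. It stood at 0.72, 0.90 and 0.59 TPM in libraries labelled Noble and 0.18, 0.19 and 0.11 TPM in those labelled Carlos at E-L 38, against 0.22, 0.30 and 0.34 TPM in Noble and 0.09, 0.06 and 0.37 TPM in Carlos at E-L 35. Its difference was not called with edgeR (log2 fold change 0.72 ± 0.32 SE, adjusted p = 0.083), but it was in 4 of 19 alternatives. Among these were DESeq2 (adjusted p = 0.032), limma-voom (0.042) and edgeR without Carlos E-L 35 replicate 3 (0.00037), in a range over all fits of 0.00037 to 0.17.

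The remainder at veraison varied with single libraries. Carlos replicate 3 held the highest Carlos value in 53 of the 80 genes (66.2%) and in 41.4% of the 11728 genes above the minimum, and Noble replicate 3 the highest Noble value in 43 (53.8%) and in 22.0% of those genes. Counts were found for 49, 67 and 68 genes of the set in the Noble libraries of E-L 35 and for 49, 54 and 69 in the Carlos libraries. Without Carlos E-L 35 replicate 3 24 genes were called between E-L 38 and E-L 35 in either direction, and without the 3 libraries that stood apart 25. Calls over all genes in these fits numbered 6642 and 6384, against 6724 in the main fit.

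Between the cultivars at veraison 5 genes were called with edgeR, 6.25% of the set beside 19.0% of all genes. Of these, 3 were higher in Noble, where 9.75% of all genes were, and 2 were lower, where 9.25% were. With every gene of the set held to 1 TPM at this stage, counts were few, and nothing is read from these shares. VIT_02s0087g00640 stood at 0.49, 0.86 and 0.55 TPM in Noble, against 0.09, 0.05 and 0 TPM in Carlos (edgeR adjusted p = 0.0012). VIT_02s0025g00580 stood at 0.04, 0.40 and 0.06 TPM in Noble, against 0 TPM in all 3 Carlos libraries (edgeR adjusted p = 0.032). VIT_07s0104g01620 stood at 0.06, 0.64 and 0.47 TPM in Noble, against 0, 0 and 0.16 TPM in Carlos (edgeR adjusted p = 0.048).

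The genes lower in Noble at veraison were VIT_02s0025g01300 and VIT_13s0019g02020. VIT_02s0025g01300 stood at 0, 0.13 and 0 TPM in Noble, against 0.86, 0.32 and 0.33 TPM in Carlos (edgeR adjusted p = 0.033), and VIT_13s0019g02020 at 0.19, 0.28 and 0.06 TPM in Noble, against 0.50, 0.50 and 0.92 TPM in Carlos (edgeR adjusted p = 0.022). VIT_02s0087g00640 was called in every alternative tried, and each of the other 4 lost its call in at least 3 of them. The number of calls was 9 without Noble replicate 2, 3 without Noble replicate 1, 2 without Carlos replicate 1 and 15 without Carlos replicate 3 (13 higher and 2 lower in Noble). Over all genes the same fits made 4053, 1869, 2716 and 4944 calls, against 3356 in the main fit. The levels of the called genes rest on 11 to 56 counts per gene over the 6 libraries.

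Outside the set, the genes whose pattern over 18 libraries was most like the mean of the members in log2(TPM + 1) were VIT_10s0003g02960 (Pearson r = 0.998), VIT_12s0028g02630 (0.997) and VIT_08s0007g06820 (0.996). The points share libraries and were not tested. VIT_10s0003g02960 averaged 56.6 TPM in Noble and 124 TPM in Carlos at E-L 32, 0.277 TPM at E-L 35 and 0.035 TPM at E-L 38, and missed the set by 0.03 TPM in 1 library. VIT_12s0028g02630 had the same course at a lower level, with 3.45 TPM in Noble and 5.63 TPM in Carlos at E-L 32, 0.11 TPM at E-L 35 and 0 TPM at E-L 38. VIT_08s0007g06820 averaged 78.0 TPM in Noble and 126 TPM in Carlos at E-L 32 but still 17.3 TPM at E-L 35 and 14.6 TPM at E-L 38, since a correlation takes no account of level.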

How the data were processed

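RNA of 18 berry libraries was sequenced by the authors from directional libraries, per the labels' protocols. STAR 2.7.6a and RSEM 1.3.3 were used, per the submitters' processing notes. The sources used here do not give the genome build, annotation or strand setting. How closely the reference matches either cultivar is thus not known, and any effect of that match on the cultivar differences was not tested. The expected counts deposited by the authors are estimates that divide a read among the genes it matches. They were not whole (tolerance 0.005) for 2667 identifiers, 10 of the set among them, and were rounded. The TPM deposited by the authors is scaled by length and library, and chose the members. The FPKM deposited by the authors served only as an alternative to TPM. The deposited gene lengths are one value per gene and of other units (bases).

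edgeR 4.0.16 in R 4.3.3 (filterByExpr, TMM, quasi-likelihood F test, 1 coefficient per group) was fitted to all 18 libraries, with Benjamini-Hochberg adjustment over all 17657 genes tested. The SE given with edgeR results was derived from the test, as the absolute log2 fold change divided by the square root of the F statistic. CPM values are counts scaled after TMM. DESeq2 1.42.0, limma-voom (limma 3.58.1) and other settings were alternatives. All replicate pairs differed beyond sampling noise, with at least 2.96 chi-square units per degree of freedom.

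Named genes were the 5 most abundant members, up to 5 with the highest and 5 with the lowest cultivar fold change among called genes whose groups did not overlap, those next to each threshold, and 3 runs of neighbouring identifiers. The fourth run, the genes called at E-L 35 and those given for traces were chosen after their values were seen. The members, lists and tests were chosen with earlier results of these data known. The gene lists and cell type markers planned by function were not tested, since 0 identifiers matched a name.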

Additional observations from a re-analysis of the deposited data

How the results depend on the processing

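The number of members followed the limits: 185 with a minimum of 2 TPM, 27 with 10 TPM, 31 with a maximum of 0.5 TPM, 172 with 2 TPM, 47 on CPM, 175 on group means and 158 without the 3 libraries that stood apart. Leaving out 1 library gave 80 to 122. At E-L 32 the count of genes lower in Noble was 49 in a fit to those 6 libraries alone, where 10 were higher. It stayed within 1.5-fold of 30 in the other 14 alternatives, with 22 to 24 when 1 library was left out, and 17 of the 30 were called lower in all 14 alternative fits. Upper-quartile scaling raised the share of all calls that were higher in Noble to 60.5%, against 50.4%. The count higher in Noble was 0 to 0 without single libraries. Calls over all genes at E-L 32 numbered 9298 in the fit to those libraries alone, against 4852. The median log2 fold change stayed between -0.83 and -0.70. At E-L 35 calls over all genes numbered 1869 without Noble replicate 1 and 5841 without the 3 libraries, against 3356. The cultivar calls in the set numbered 13 with DESeq2, 15 without the 3 libraries and 2 to 15 without single libraries. With the replicate number as a block, 1 gene was higher in Noble at E-L 32 and 3 were called at E-L 35. Deviations of same-numbered libraries from their group means correlated at r from -0.229 to 0.31, so the number was not used as a pairing, and whether these libraries share a vine, harvest or batch is not known. Of 252 values for 18 named genes at E-L 32, 32 lost and 2 gained a call and 0 changed sign. The cause of these changes was not tested. Depth limits the later stages, where genes of the set held 1 to 280 counts over 12 libraries.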
